A study of Mus musculus with 6 samples.

Results

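The growth hormone-releasing hormone (GHRH), somatostatin and galanin system was followed through 10 genes, measured by 21 of the 45037 probe sets tested. The genes were the peptide precursors Ghrh, Sst and Gal, the homeobox gene Gsx1, the receptors Sstr1, Sstr2, Galr1 and Ghr, and the growth factor gene Igf1 with its receptor gene Igf1r. They were chosen by name, and every probe set that the array annotation gives to 1 of these symbols was taken. The samples were 3 from POMCDicerKO mice, which lack the microRNA-processing enzyme Dicer in cells that express Pomc, and 3 from control mice (genotype Ctrl). All were arcuate microdissections of the hypothalamus at an age of 2 weeks (strain background mixed from C57Bl/6J, FVB/N and 129), each hybridised to an Affymetrix Mouse Genome 430 2.0 array. The labels call the samples independent, and the sources used here do not give the driver of the deletion, the alleles of the controls or whether a sample was 1 mouse or a pool. Pomc is also made in the pituitary, and where Dicer was deleted was not tested. Values are log2 expression values, so that a difference of 1 is a 2-fold difference.

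Neurons of the arcuate nucleus that make GHRH release it into the portal blood of the median eminence, where it drives growth hormone secretion from the pituitary. Somatostatin, from periventricular and arcuate neurons, inhibits that secretion, and growth hormone and insulin-like growth factor 1 (IGF1) feed back on the hypothalamus through their receptors. Galanin is a peptide co-transmitter found in GHRH neurons of the arcuate nucleus and in neurons of the lateral hypothalamus, and it acts through Gi-coupled receptors such as Galr1. Gsx1 is a transcription factor that GHRH neurons need to form in the mouse.

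Upstream sequences from RefSeq (build GRCm38.p6) were found for 8 of the 10 genes, all but Sstr1 and Galr1. The 250 bases before each start were searched on both strands for the cyclic AMP response element TGACGTCA, the site through which the factor CREB drives Sst, and for TATAAA; these motifs do not overlap. Those of the 3 peptide genes and of Sstr2 are shown because the peptide genes are the outputs of the system and because Sst and Sstr2 were the members whose windows hold TGACGTCA. Each runs 5′ to 3′ on the minus strand except Sstr2, which lies on the plus strand, and capitals mark a motif.
Ghrh, chr2:157337427-157337676: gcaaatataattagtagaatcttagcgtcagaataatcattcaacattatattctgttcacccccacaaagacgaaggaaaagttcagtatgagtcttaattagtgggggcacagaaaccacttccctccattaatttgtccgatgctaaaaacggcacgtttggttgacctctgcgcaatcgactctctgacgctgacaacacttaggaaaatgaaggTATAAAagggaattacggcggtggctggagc
Sst, chr16:23890845-23891094: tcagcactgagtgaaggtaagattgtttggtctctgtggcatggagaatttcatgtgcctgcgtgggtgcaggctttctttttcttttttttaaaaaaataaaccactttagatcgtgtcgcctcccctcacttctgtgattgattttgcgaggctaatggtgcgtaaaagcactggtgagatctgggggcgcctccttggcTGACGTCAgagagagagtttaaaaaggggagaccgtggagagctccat
Gal, chr19:3414545-3414794: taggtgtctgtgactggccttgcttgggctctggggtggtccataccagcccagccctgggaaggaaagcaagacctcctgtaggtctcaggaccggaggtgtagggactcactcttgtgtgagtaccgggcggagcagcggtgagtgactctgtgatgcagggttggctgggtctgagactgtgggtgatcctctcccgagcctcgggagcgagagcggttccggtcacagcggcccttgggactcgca
Sstr2, chr11:113619077-113619326: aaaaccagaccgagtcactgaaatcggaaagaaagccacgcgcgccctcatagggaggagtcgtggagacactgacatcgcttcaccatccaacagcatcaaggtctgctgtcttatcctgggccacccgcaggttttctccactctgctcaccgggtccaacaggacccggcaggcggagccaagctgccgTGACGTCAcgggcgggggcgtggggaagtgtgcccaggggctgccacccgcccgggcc
TGACGTCA began 48 bases before the start in Sst and 58 bases before it in Sstr2, and 508 of 32851 windows of the same length (1.55%) hold it. TATAAA began 31 bases before the start in the Ghrh window shown, and 12.4% of all windows hold it. A further annotated Ghrh start, with 250 bases at chr2:157346656-157346905, held neither motif. A match describes the letters only and is no measure of binding.

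No gene of the system gave a difference between POMCDicerKO and control samples that passed the test. None of the 21 probe sets passed limma's adjusted threshold of 0.05 (adjusted p = 1 for each), against 0 of all 45037 probe sets (0.0%). At an unadjusted p under 0.05 there were 0 member probe sets, against 1098 of all probe sets (2.44%). The groups did not overlap at 1 member probe set, for Igf1r, against 6.36% of all probe sets. Of the main probe sets, that with the highest mean of each gene, 4 were higher and 6 lower, with a median log2 fold change of -0.014, against -0.0099 over the main probe sets of all 18193 genes. All 21 of the 95% intervals include 0. A mean value of at least 6 was reached by 10 of the 21 probe sets and by the main probe sets of 7 genes. Those of Gsx1, Sstr1 and Galr1 lay below it, where differences can be compressed, though this was not tested.

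**Figure D1:**
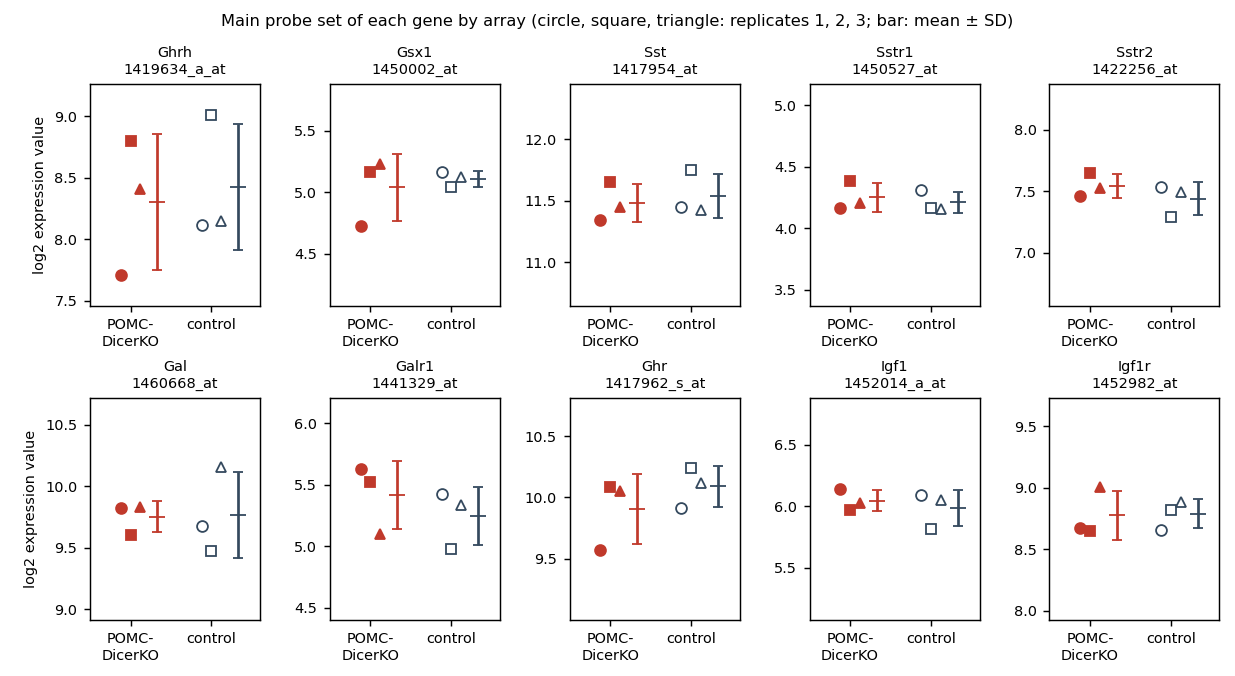
Log2 expression value of the main probe set of each of the 10 genes on every array, POMCDicerKO left and control right, with mean ± SD (n = 3) beside the points, on axes of equal length. The groups overlap in every panel, and Ghrh has the widest spread, from 7.71 to 9.01.

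The labels were checked first. Dicer1 read 9.18, 9.19 and 9.33 in POMCDicerKO and 9.22, 9.18 and 9.24 in controls at 1460571_at, so the groups overlapped. They also overlapped at its other probe set, 1427941_at, with a log2 fold change of 0.090. The share of Pomc cells in the tissue was not measured, and these values do not test the genotype. Pomc read 9.35, 9.71 and 9.43 in POMCDicerKO and 9.94, 10.87 and 9.76 in controls at 1433800_a_at. The groups did not overlap there, as at 6.36% of all probe sets. The log2 fold change of -0.69 (standard error 0.27) did not pass (limma adjusted p = 1). It was -0.35 with control 2 left out and -0.26 against control 3 alone. At the other Pomc probe set, 1455858_x_at, the groups overlapped, with 8.82, 9.40 and 8.89 in POMCDicerKO and 9.63, 10.12 and 9.35 in controls. The arcuate genes Pomc, Npy, Cartpt, Tac2 and Tbx3 all had a mean of at least 6 (5 of 5 measured), and Agrp and Kiss1 were not analysed here. In a bulk sample, fewer cells of a type and less RNA per cell cannot be told apart.

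Ghrh, the releasing hormone itself, was the most variable of the members. It read 7.71, 8.80 and 8.41 on the POMCDicerKO arrays and 8.11, 9.01 and 8.15 on the control arrays. Array 2 of each group was the highest of its group, POMCDicerKO array 1 was the lowest of all, and the groups overlapped. Its log2 fold change was -0.12 (SE 0.32), and its 95% interval, from -0.86 to 0.62, allows a ratio of POMCDicerKO to control between 0.55 and 1.54 (limma adjusted p = 1, two-sided exact permutation p = 0.9; 3 against 3 samples cannot go below 0.1). The direction turned without control 2 (0.17) and without POMCDicerKO replicate 1 (0.18). The span of Ghrh over the 6 arrays, 1.31, was larger than that of 99.3% of the 22714 probe sets with a mean of at least 6.

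Gsx1, the transcription factor of the GHRH lineage, read 4.73, 5.17 and 5.23 in POMCDicerKO and 5.17, 5.04 and 5.12 in controls. The low value of POMCDicerKO array 1 set its log2 fold change of -0.069, which was 0.087 without that array. Its mean of 5.08 was above that of 34.9% of all probe sets.

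Sst, the somatostatin precursor, was measured with a far narrower spread than Ghrh. The POMCDicerKO arrays read 11.34, 11.65 and 11.45 and the control arrays 11.44, 11.75 and 11.42. The groups overlapped almost entirely, and array 2 was again the highest in each. The group means were 11.48 ± 0.15 in POMCDicerKO and 11.54 ± 0.18 in controls (SD, n = 3 each). The log2 fold change was -0.058 (SE 0.11), and the 95% interval puts the ratio of POMCDicerKO to control between 0.80 and 1.16 (limma adjusted p = 1, exact permutation p = 0.7). Without control 2 the value was 0.046 and without POMCDicerKO replicate 1 it was 0.011.

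The somatostatin receptor genes gave no difference past the test either. Sstr2, a receptor that GHRH neurons carry, read 7.46, 7.65 and 7.52 in POMCDicerKO and 7.54, 7.29 and 7.49 in controls. Control 2, the highest array for Sst, was the lowest for Sstr2. The log2 fold change was 0.11 with a 95% interval from -0.10 to 0.31 (limma adjusted p = 1), and it was 0.029 without control 2 and 0.052 without POMCDicerKO replicate 2. Sstr1 stayed near the lower end of the scale, between 4.16 and 4.38 in POMCDicerKO and between 4.16 and 4.31 in controls, and at 0.041 its log2 fold change was within the spread of either group.

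Gal, the galanin precursor, read 9.82, 9.60 and 9.83 in POMCDicerKO and 9.68, 9.47 and 10.16 in controls. All 3 POMCDicerKO values lay inside the control range, and here array 2 of each group was the lowest of its group. The log2 fold change was -0.015 (SE 0.17) (95% interval -0.40 to 0.37, limma adjusted p = 1). Control 3 weighed most: without it the value was 0.18, and against control 3 alone it was -0.40. The galanin receptor gene Galr1 was read by 3 probe sets, all with a mean under 6. Its main probe set, 1441329_at, read 5.63, 5.52 and 5.10 in POMCDicerKO and 5.43, 4.98 and 5.33 in controls, a log2 fold change of 0.17, and 1427704_a_at gave 0.19. Without control 2 these values were 0.037 and 0.082, and without POMCDicerKO replicate 3 they were 0.33 and 0.30. The third, 1450568_at, gave -0.015. All 3 overlapped between the groups.

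Ghr, the growth hormone receptor, was lower on average at each of its 3 probe sets, and 0 of them passed. Its main probe set, 1417962_s_at, read 9.58, 10.09 and 10.05 in POMCDicerKO and 9.91, 10.24 and 10.12 in controls. POMCDicerKO array 1 lay below every control and the other two lay among them. The log2 fold change was -0.19 (SE 0.15) (95% interval -0.53 to 0.16, exact permutation p = 0.4) and was -0.020 without POMCDicerKO replicate 1. At 1451501_a_at the arrays read 6.38, 6.57 and 6.46 in POMCDicerKO and 6.47, 6.74 and 6.75 in controls, a log2 fold change of -0.18 (95% interval -0.40 to 0.044, exact permutation p = 0.2). It ran from -0.27 to -0.13 with single arrays left out. The dimmest probe set, 1451871_a_at, gave -0.075, between -0.16 and -0.030 with single arrays left out. Probe sets of 1 gene are read on the same 6 arrays, so their shared sign is not separate evidence.

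Igf1, which encodes a growth factor made by neurons and microglia as well as by the liver, gave probe sets that differed in how much they varied. The main probe set, 1452014_a_at, read 6.14, 5.97 and 6.03 in POMCDicerKO and 6.09, 5.82 and 6.05 in controls, a log2 fold change of 0.058. At 1437401_at the arrays read 6.40, 5.63 and 5.74 in POMCDicerKO and 6.35, 5.63 and 6.24 in controls. POMCDicerKO array 1 and controls 1 and 3 were high, the other 3 arrays were low, and the log2 fold change of -0.15 had an SE of 0.25. Probe set 1434413_at gave -0.16, with 5.99, 5.46 and 5.40 in POMCDicerKO and 5.90, 5.68 and 5.76 in controls. With single arrays left out 1437401_at ran from -0.39 (without POMCDicerKO replicate 1) to -0.0034 (without replicate 2), and 1434413_at from -0.35 (without replicate 1) to -0.054 (without replicate 3). The fourth, 1419519_at, stayed between 3.71 and 3.84 on all arrays, near the lowest value of the table, 3.05. The mean of the 4 probe sets gave -0.063 where the main probe set gave 0.058, and neither passed.

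Igf1r, the receptor tyrosine kinase for IGF1, was read by 5 probe sets, of which 4 were close to 0. The main probe set, 1452982_at, read 8.67, 8.65 and 9.01 in POMCDicerKO and 8.66, 8.82 and 8.89 in controls, a log2 fold change of -0.013 (95% interval -0.27 to 0.25). Probe sets 1428967_at, 1426565_at and 1452108_at gave -0.054, 0.0053 and 0.038. The exception was 1446303_at, the only member probe set whose groups did not overlap. It read 5.81, 5.89 and 6.54 in POMCDicerKO and 5.80, 5.45 and 5.72 in controls, where the lowest POMCDicerKO value lay just above the highest control value. Its log2 fold change of 0.42 had a 95% interval from -0.026 to 0.87 and did not pass (limma adjusted p = 1, unadjusted p = 0.0613, exact permutation p = 0.1, the smallest possible), and it was 0.19 without POMCDicerKO replicate 3. Its mean of 5.87 was under 6, unlike those of the probe sets 1452982_at, 1428967_at and 1426565_at.

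**Figure D2:**
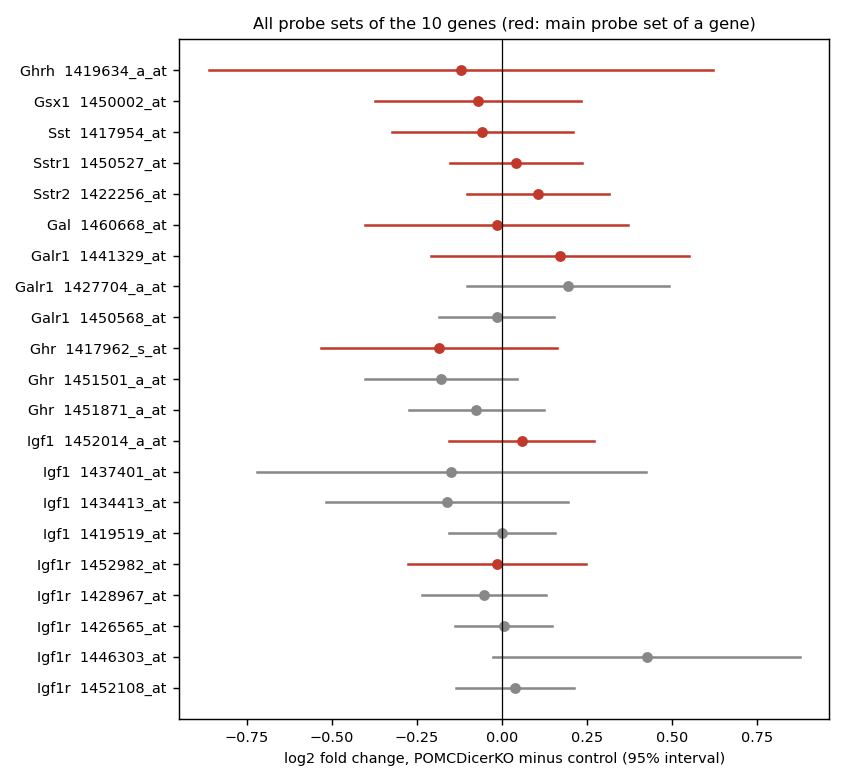
Log2 fold change of each of the 21 probe sets, POMCDicerKO minus control, with limma's 95% interval; the main probe set of a gene is red and the others are grey. Every interval crosses 0; that of Ghrh is the widest, from -0.86 to 0.62, and that of Igf1r 1446303_at lies farthest to the right, from -0.026 to 0.87.

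Several members varied between arrays of 1 group more than between the groups. On array 2 of each group Ghrh and Sst were at their highest, and Gal was at its lowest. The lateral hypothalamus peptide genes Pmch and Hcrt ran the other way from Ghrh. Pmch, the precursor of melanin-concentrating hormone, read 13.22, 11.28 and 12.32 in POMCDicerKO and 12.69, 10.91 and 13.06 in controls. Hcrt, the orexin precursor, read 10.72, 8.20 and 8.62 in POMCDicerKO and 8.60, 7.78 and 9.48 in controls. Control 2 was the lowest array for both and POMCDicerKO array 1 the highest, which is the reverse of Ghrh at both ends. Lhx9, the other lateral hypothalamus marker, did not show this, and its mean of 5.13 was under 6. It read 5.06, 5.13 and 5.25 in POMCDicerKO and 5.29, 5.06 and 4.99 in controls. All 3 lateral hypothalamus markers were measured, with median deviations from the control mean between -0.42 and 1.01 in POMCDicerKO and between -0.84 and 0.84 in controls, and their summed signal lay between 11.46 and 13.46 in POMCDicerKO and between 11.09 and 13.18 in controls (log2).

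Npy and the tanycyte genes, by contrast, were lowest and highest on the same arrays as Ghrh. Npy read 10.38, 11.79 and 11.86 in POMCDicerKO and 11.60, 12.32 and 12.03 in controls. Col23a1, expressed in tanycytes of the third ventricle wall, read 7.25, 8.36 and 7.91 in POMCDicerKO and 8.03, 8.58 and 8.15 in controls. POMCDicerKO array 1 was the lowest array and control 2 the highest for Ghrh, for Npy and for all 4 tanycyte markers. The same held for the arcuate genes Pomc and Tbx3, but not for the arcuate genes Cartpt and Tac2. Cartpt was lowest on POMCDicerKO array 3 (9.81) and highest on control 3 (10.44). Tac2 was lowest on POMCDicerKO array 3 (8.92) and highest on control 2 (9.18). Control 2 was also the highest array for the suprachiasmatic genes Six6 (8.67), Vip (10.81) and Lhx1 (7.52), whose lowest array was a control. Six6 was highest on array 2 of each group, as Ghrh and Sst were. None of the paraventricular or ventromedial markers was lowest on POMCDicerKO array 1 and highest on control 2. The ventromedial gene Fezf1 showed the reverse, from 7.38 on control 2 to 7.51 on POMCDicerKO array 1. Over the 4 tanycyte markers, all lower on average, the median deviation from the control mean lay between -0.86 and 0.11 in POMCDicerKO and between -0.17 and 0.23 in controls, with a summed log2 signal of 8.80 to 9.80 in POMCDicerKO and 9.53 to 9.93 in controls. Over the 5 arcuate markers, all lower on average, the deviation lay between -0.84 and -0.19 in POMCDicerKO and between -0.25 and 0.34 in controls, and the summed log2 signal was 11.93 to 12.58 in POMCDicerKO and 12.53 to 13.13 in controls. The part of the dissected region in the values of Ghrh and Gal was not tested.

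**Figure D3:**
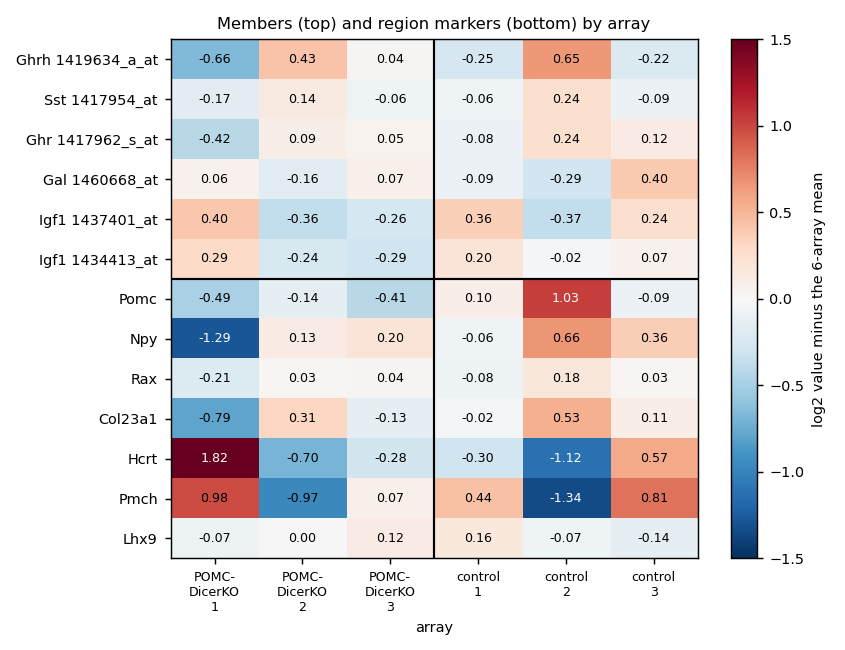
Deviation of each log2 value from the mean of its probe set over the 6 arrays, with arrays in columns (POMCDicerKO left, control right), 6 member probe sets above the line and 7 region markers below it; colours saturate at 1.5. Ghrh, Npy and Col23a1 are lowest on POMCDicerKO array 1 and highest on control 2, while Hcrt and Pmch show the reverse and Lhx9 shows neither. The rows are a selection. The arcuate genes Cartpt and Tac2, which did not share both the lowest and the highest array with Ghrh, are not plotted, nor is the main probe set of Igf1.

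Ghrh was the only member whose main probe set spanned at least 1 log2 unit, so genes with a like pattern were sought for it alone. Among 1330 main probe sets with a mean of at least 6 and a span of at least 0.5, the closest over the 6 arrays were Rsph1 (r = 0.997), which encodes a radial spoke protein of motile cilia, Fam166c (r = 0.988) and Spag16 (r = 0.988), which encodes a protein of the ciliary axoneme. Rsph1 read 8.44, 8.95 and 8.80 in POMCDicerKO and 8.61, 9.07 and 8.64 in controls, the same order of arrays as Ghrh. In all, 19 genes reached an r of at least 0.95. Such values describe 6 arrays that share their dissections, and they carry no test.

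Pomc was then set against its neighbours within each array, a comparison chosen after the values were seen. The log2 value of Pomc minus that of Sst was -1.99, -1.94 and -2.02 in POMCDicerKO and -1.51, -0.87 and -1.67 in controls. The groups did not overlap, and the difference of -0.64 had the smallest exact permutation p possible, 0.1. Pomc alone at the same probe set, 1433800_a_at, also had groups that did not overlap and an exact permutation p of 0.1. The value against Sst therefore adds nothing to that of Pomc. Against Ghrh it was 1.65, 0.91 and 1.02 in POMCDicerKO and 1.82, 1.86 and 1.61 in controls, a difference of -0.57 with overlapping groups (exact permutation p = 0.2). Against Gal the difference was -0.68 (exact permutation p = 0.2). Without control 2, the array highest in Pomc, the differences were -0.40 against Sst, -0.52 against Ghrh and -0.19 against Gal, and each kept its sign with any single array left out. Pomc itself enters all 3 values, so they are not separate results.

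The wider growth hormone, IGF and galanin genes gave 0 calls over all probe sets (0.0% of all genes). Of 36 listed genes, 34 were measured, 15 higher and 19 lower, with a median log2 fold change of -0.042 against -0.0099 for all genes. At an unadjusted p under 0.05 there were 3 (Gh higher, Irs4 and Igf2 lower), against 2.41% of all genes. The groups did not overlap at 1, Igfbp1, against 6.44% of all genes. Igfbp1, a binding protein gene near the low end of the scale, read 4.27, 4.16 and 4.16 in POMCDicerKO and 4.08, 4.14 and 3.94 in controls, a log2 fold change of 0.14. Galr3 and Galp were not analysed here.

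Gh, the growth hormone gene itself, stood high on POMCDicerKO arrays 1 and 3 and on no other array. Its probe set with the largest difference, 1456595_x_at, read 9.10, 4.71 and 7.67 in POMCDicerKO and 4.61, 4.24 and 4.37 in controls. The log2 fold change there was 2.75 with a 95% interval from 0.57 to 4.94. POMCDicerKO array 2 lay close to control 1, and the other two stood far above every control. Its main probe set, 1460310_a_at, read 8.92, 6.04 and 8.34 in POMCDicerKO and 6.24, 5.89 and 6.24 in controls, a log2 fold change of 1.64. The remaining probe sets, 1437522_x_at and 1460613_x_at, gave 2.51 and 2.58. The groups overlapped at the main probe set and at both of these, and only at 1456595_x_at did they not. None passed (limma adjusted p = 1 for each), and at the main probe set the value was 1.07 without POMCDicerKO replicate 1 and 2.51 without replicate 2. Myelin markers were highest on the same arrays: over 6 of 7 measured markers, all higher on average, the median deviation from the control mean was 0.92, 0.12 and 0.53 in POMCDicerKO and 0.13, -0.20 and 0.11 in controls. Their summed log2 signal lay between 14.49 and 14.86 in POMCDicerKO and between 14.32 and 14.50 in controls, and their part in the Gh values was not tested.

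The other pituitary genes were mixed. Of the 7 pituitary markers 6 were measured, 2 higher (Gh and Prl) and 4 lower, and 4 of them had a mean under 6. Prl, the prolactin gene, read 4.65, 4.25 and 4.61 in POMCDicerKO and 4.06, 4.24 and 4.27 in controls. Prl was thus also highest on POMCDicerKO arrays 1 and 3, near the low end of the scale. Ghrhr, the GHRH receptor gene of pituitary somatotrophs, read 5.69, 5.56 and 5.84 in POMCDicerKO and 5.73, 5.75 and 5.73 in controls. Cga, the common subunit gene of the glycoprotein hormones, read 8.67, 5.08 and 6.27 in POMCDicerKO and 9.46, 9.87 and 7.80 in controls. It was highest on control 2, where Gh was lowest, but the genes did not run opposite on every array. Within POMCDicerKO both were highest on array 1 and lowest on array 2. The summed log2 signal of the list lay between 7.88 and 10.03 in POMCDicerKO and between 8.82 and 10.18 in controls. Whether pituitary RNA in the dissections had a part in the Gh values was not tested.

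Igf2 and the binding protein genes Igfbp2 and Igfbp6 were highest on the control arrays richest in meningeal transcripts. Igf2, a growth factor gene expressed in the meninges and choroid plexus, read 9.02, 8.86 and 8.62 in POMCDicerKO and 9.68, 9.82 and 8.80 in controls. Igfbp2 read 5.73, 5.77 and 4.81 in POMCDicerKO and 6.82, 6.69 and 5.38 in controls. Igfbp6 read 5.68, 5.57 and 5.73 in POMCDicerKO and 6.49, 5.97 and 5.59 in controls. For all 3 genes controls 1 and 2 were the highest arrays and control 3 lay among the POMCDicerKO arrays. The means of Igfbp2 and Igfbp6, 5.86 and 5.84, were under 6. A dim probe set of Igf2, 1415931_at (mean 4.05), gave -0.018 and did not show this order of arrays. Among the other binding protein genes, Igfbp4 was also highest on controls 1 (7.22) and 2 (7.32). Igfbp1, Igfbp3, Igfbp5 and Igfbp7 did not have these controls as their highest arrays. At the main probe sets of Igf2, Igfbp2 and Igfbp6 the log2 fold changes were -0.60, -0.86 and -0.36 (limma adjusted p = 1 for each). Against control 3 alone they were 0.030, 0.061 and 0.072. The 8 meningeal and fibroblast markers, all lower on average and 4 of them with a mean under 6, showed the same arrays apart, with median deviations from the control mean of -0.52, -1.10 and -1.48 in POMCDicerKO and 0.33, 0.48 and -0.84 in controls. Their summed log2 signal lay between 10.14 and 11.36 in POMCDicerKO and between 11.18 and 13.83 in controls. The 4 choroid plexus markers, all lower on average and 2 of them with a mean under 6, had median deviations of -0.24, -0.19 and -0.37 in POMCDicerKO and -0.078, 0.23 and -0.17 in controls. Their summed log2 signal was 10.38, 11.48 and 8.21 in POMCDicerKO and 11.10, 9.57 and 10.09 in controls, highest on POMCDicerKO array 2. The part of meningeal or choroid plexus RNA in the Igf2 values was not tested.

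**Figure D4:**
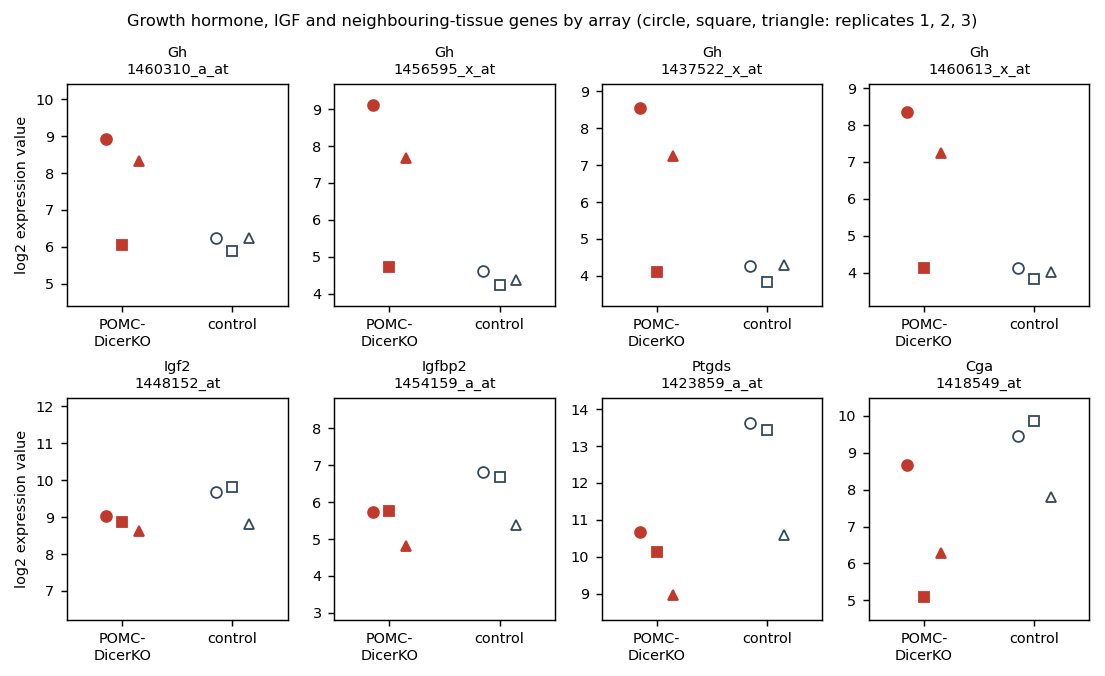
Log2 expression values on every array, POMCDicerKO left and control right, on axes of equal length, for the 4 probe sets of Gh, for Igf2 and Igfbp2, and for the meningeal marker Ptgds and the pituitary marker Cga. Gh is high on POMCDicerKO arrays 1 and 3, and Igf2, Igfbp2 and Ptgds are highest on controls 1 and 2.

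Irs4, a docking protein of insulin and IGF1 receptors that is abundant in the hypothalamus, read 11.27, 11.71 and 11.44 in POMCDicerKO and 11.73, 11.91 and 11.70 in controls at its main probe set. The groups overlapped only through POMCDicerKO array 2, which lay just above control 3. The log2 fold change was -0.30 with a 95% interval from -0.58 to -0.029, and it did not pass (limma adjusted p = 1). It was -0.20 without POMCDicerKO replicate 1 and -0.42 without replicate 2, and a dim probe set of the gene, 1422248_at, gave -0.032. The 7 genes of the JAK and STAT pathway in the list, which act downstream of the growth hormone receptor, all had 95% intervals that include 0. The kinase gene Jak2 was at 0.063, the factors Stat5a and Stat5b were at -0.043 and -0.067, and the feedback inhibitor genes Cish, Socs1, Socs2 and Socs3 were at -0.056, -0.11, -0.015 and -0.15. The other somatostatin receptor genes Sstr3, Sstr4 and Sstr5 were at 0.068, -0.045 and -0.050, and Galr2 was at 0.067.

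**Figure D5:**
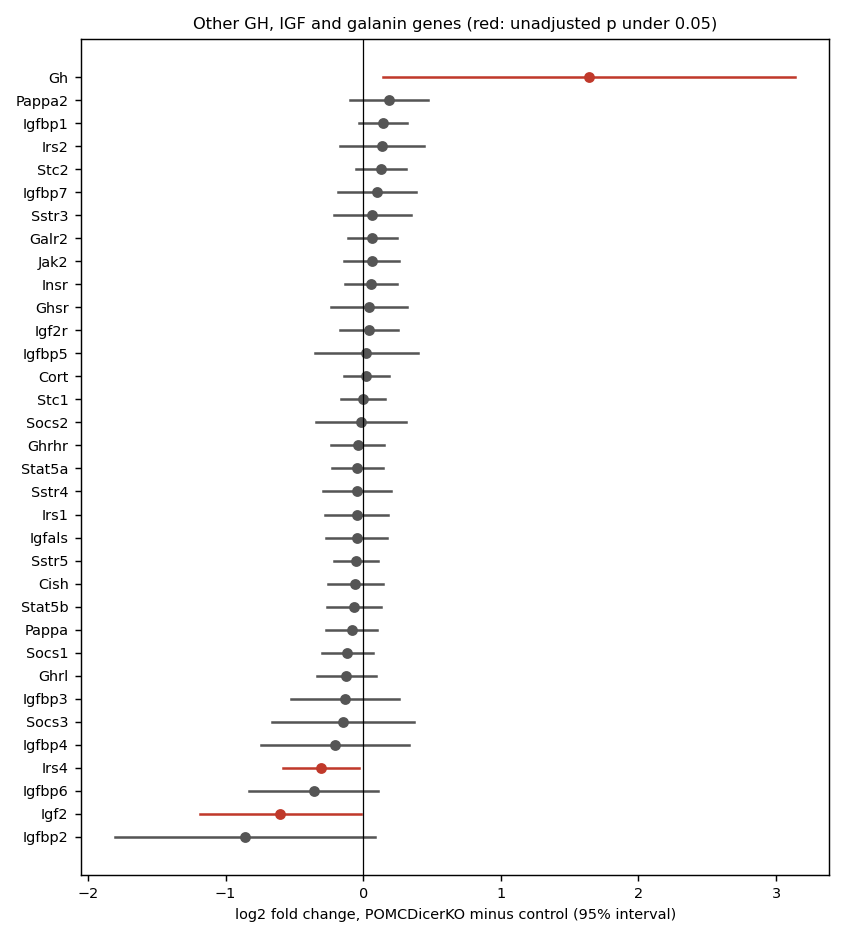
Log2 fold change, POMCDicerKO minus control, with limma's 95% interval, of the main probe sets of 34 other growth hormone, IGF and galanin genes; red marks an unadjusted p under 0.05. Gh has the highest value, 1.64, and Igfbp2 the lowest, -0.86, both with wide intervals.

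Transcription factors of GHRH and somatostatin neurons gave 0 calls among 10 measured genes, 2 higher and 8 lower, with a median log2 fold change of -0.024, against 0.0% called and a median of -0.0099 over all genes. None had an unadjusted p under 0.05 (2.41% of all genes), and all overlapped between the groups (6.44% of all genes did not). Isl1, needed by several arcuate neuron types, read 9.95, 10.35 and 10.10 in POMCDicerKO and 10.21, 10.35 and 10.40 in controls. It gave -0.19 (SE 0.11), and -0.096 without POMCDicerKO replicate 1. Otp, which somatostatin neurons of the periventricular zone need to form in the mouse, was at -0.11 and at -0.0058 without POMCDicerKO replicate 1. Pou3f2 was at -0.12 and at -0.035 without control 1, and Sim1 was at 0.093 (SE 0.25). Hmx2 and Hmx3, homeobox genes required for Ghrh expression in mice, were at -0.095 and 0.064, on dim probe sets with means of 4.27 and 4.93.

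Genes of transmitters that GHRH neurons also use gave 0 calls among 9 measured genes, 5 higher and 4 lower, with a median of 0.011, against 0.0% called and a median of -0.0099 over all genes. The samples were bulk tissue, so the values of these genes cannot be assigned to GHRH neurons. The gene with the largest difference was Slc6a3, the dopamine transporter, which read 6.19, 6.28 and 6.34 in POMCDicerKO and 6.77, 6.58 and 6.54 in controls, the 1 gene of the list whose groups did not overlap and the 1 with an unadjusted p under 0.05. Over all genes these shares were 6.44% and 2.41%. It gave -0.36 (SE 0.084) and did not pass over all probe sets (limma adjusted p = 1). The other genes of dopamine and GABA transmission were smaller in effect. The vesicular transporter Slc18a2 was at -0.24, the tyrosine hydroxylase gene Th at -0.034 and the decarboxylase Ddc at 0.046. The GABA-synthesising enzymes Gad1 and Gad2 were at 0.040 and 0.052, and the vesicular GABA transporter Slc32a1 was at 0.049. A further probe set gave 0.14 for Gad1 (1416562_at) and 0.28 for Gad2 (1421978_at), where the groups overlapped. Controls at the latter ran from 8.29 to 9.26. Slc18a2 read 9.41, 9.09 and 9.02 in POMCDicerKO and 8.76 to 9.89 in controls, so all POMCDicerKO arrays lay inside the control range; its value was -0.57 without control 2 and -0.0036 without control 3.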

How the data were processed

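Values were used as deposited: log2 expression values, which the authors made with RMA and the affy package, per the submitters' processing notes (the sources used here give no versions). RMA equalises the distributions of the arrays, so a shift shared by most transcripts would have been removed. Array medians lay between 6.02 and 6.05. No depth applies; the number of arrays limits precision. No detection calls were used.

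The probe table names 1 symbol for 34945 probe sets, several for 932 and none for 9160; 64 AFFX probe sets were left out, and 0 sample columns were unused. Symbols were updated through the RefSeq table of GRCm38.p6 (34741 found). Groups come from the titles. limma 3.58.1 in R 4.3.3 (lmFit, eBayes) compared POMCDicerKO with control over 45037 probe sets, with Benjamini-Hochberg adjustment and 95% intervals. Single values had a two-sided exact permutation test. On simulated data 51.5%, 97% and 100% of 200 changed probe sets were recovered at log2 changes of 0.5, 1 and 2, with 11, 11 and 9 false calls. The simulation drew normal noise with each probe set's own moderated spread and changed 200 probe sets taken at random, so the shares do not hold for a probe set as variable as that of Ghrh or Pomc. Its noise was also independent between probe sets, whereas the real probe sets on an array share its dissection. The shares are therefore no measure of power for the members in these data.

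Members and lists were chosen with earlier results of these data known. Named were all members, up to 6 genes per list by unadjusted p, and the 3 genes most like a member spanning at least 1 log2 unit; list genes beyond these were named for their role after their values were seen. Alternatives covered normalisation, filters, priors, array weights, probe sets per gene, a replicate block and left-out arrays. The labels name no batch, so none was tested, and the spread between samples may be partly technical.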

Additional observations from a re-analysis of the deposited data

How the results depend on the processing

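No member probe set passed the adjusted threshold under any of the 18 alternatives (333 values, smallest limma adjusted p = 1), and 30 of these values had the other sign. Over all probe sets 0 passed in each fit of the 6 arrays. With single arrays left out the number lay between 0 and 2 (Grik1 without control 1, Ogn and Slc6a20a without control 3, named after their values were seen), and 1 unnamed probe set passed without controls 1 and 2, where control 3 is assumed to vary like the POMCDicerKO arrays. The count with an unadjusted p under 0.05 was 427 among probe sets with a mean of at least 6, 419 among those at or above the median, 516 with 1 probe set per gene and 489 with the mean of a gene's probe sets, where fewer features were tested. It was 1868 without controls 1 and 2 and between 874 (without control 2) and 2075 (without control 1) with single arrays left out.

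Member probe sets with an unadjusted p under 0.05 numbered between 0 and 2 with single arrays left out (Ghr 1451501_a_at without control 1, Igf1 1434413_at and Igf1r 1446303_at without POMCDicerKO replicate 1, Galr1 1427704_a_at without replicate 3). Without controls 1 and 2 there was 1, Gal. With the replicate number as a block there was also 1, Igf1r 1446303_at, against 1396 of all probe sets, and 0 passed the adjusted threshold. The labels do not pair the replicate numbers, so the numbers were not taken to pair the samples. Deviations of same-numbered arrays correlated at 0.128, 0.079 and 0.12, which does not settle whether such arrays share an effect.

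The median log2 fold change of the growth hormone, IGF and galanin list lay between -0.056 and 0.0053 with single arrays left out and was 0.014 without controls 1 and 2; the cause was not tested. Signs turned without controls 1 and 2 for Ghrh (0.16), Sst (0.056), Galr1 1450568_at (0.058), Igf1 1452014_a_at (-0.0068), Igf1r 1426565_at (-0.035), Igfbp6 (0.072), Hmx3 (-0.17), Ddc (-0.016), Igf2 (0.030), Pou3f2 (0.0042), Igfbp2 (0.061) and Dicer1 (-0.012). Array weights turned Dicer1 to -0.0077, and centring each array turned Igf1r 1426565_at to -0.0021. The mean of all probe sets gave -0.063 for Igf1, 0.080 for Igf1r and -0.011 for Sim1.

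Ranges with single arrays left out crossed 0 for Ghrh (-0.37 to 0.18), Gsx1 (-0.16 to 0.087), Sst (-0.14 to 0.046), Sstr1 (-0.024 to 0.090), Gal (-0.16 to 0.18), Galr1 1450568_at (-0.052 to 0.029), Igf1 1452014_a_at (-0.026 to 0.11) and Igf1 1419519_at (-0.029 to 0.037). They also crossed 0 for Igf1r at 1452982_at (-0.13 to 0.049), 1428967_at (-0.10 to 0.0028), 1426565_at (-0.017 to 0.026) and 1452108_at (-0.00074 to 0.088). Among the other named genes this held for Hmx2 (-0.20 to 0.11), Hmx3 (-0.029 to 0.18), Slc32a1 (-0.023 to 0.12), Gad2 (-0.0058 to 0.085), Sim1 (-0.12 to 0.40) and Dicer1 (-0.029 to 0.043). Gsx1, Sstr1 and Galr1 lay near the low end of the scale, which limits what their differences can show.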
